A study of Homo sapiens with 18 samples.

Results

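Divergent promoters, where the start sites of 2 protein-coding genes lie back to back and transcription leaves in both directions, were examined in MOLM-13 cells by their histone modifications. MOLM-13, an established human line of acute myeloid leukemia, carries a rearrangement of KMT2A, a gene for a histone H3 lysine 4 methyltransferase. Overlapping intervals of the H3K4me3 data were merged into 16123 loci, of which 15413 were under 8 kb wide. A locus was kept when it was under 8 kb, held the transcription start sites (TSS) of exactly 2 protein-coding genes of GENCODE release 44, and these lay on opposite strands, pointed away from each other and were at most 1 kb apart. A TSS was the 5′ end of the gene record. The rule gave 583 divergent loci, and the 7446 loci under 8 kb with 1 such TSS served for comparison. The remaining loci under 8 kb held 2 TSS whose genes overlapped at their heads (461 loci), 2 TSS on the same strand (294), 2 TSS that met the direction but lay farther apart (37), 3 or more TSS (104) or none (6488).

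Cut&Tag, in which an antibody guides a transposase to a modified histone, was performed for H3K4me3, H3K27ac, H3K4me1 and H3K27me3. Cells received 100 nM PR-957, an inhibitor of the immunoproteasome subunit PSMB8, or the solvent DMSO for 72 h per the labels, while a legend of the study gives another time. Each treatment and modification had 2 libraries, 16 in all. Labels do not say whether the libraries of a group came from separate cultures, so p-values measure the spread between these libraries, which may be technical. Total counts per library ran from 30070119 to 44591150 for H3K4me3, 9885836 to 14165777 for H3K27ac, 15204186 to 30584219 for H3K4me1 and 10032503 to 12047958 for H3K27me3. As a check of the label, an H3K4me3 interval lay over the TSS of 7 of 9 myeloid or KMT2A-rearranged leukemia markers, SPI1, CEBPA, MEIS1 and HOXA9 among them, and of 2 of 7 markers of other lineages (PAX5 and CD8A), while MPO and CSF1R had none.

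Trimethylation of H3K4 marks active and poised promoters, and acetylation of H3K27 marks active promoters and enhancers. Monomethylation of H3K4 is typical of enhancers and of the flanks of promoters, and trimethylation of H3K27 is the mark of Polycomb repression. At a divergent promoter a single nucleosome-depleted stretch, usually rich in CpG dinucleotides, serves 2 genes, and such pairs often encode housekeeping proteins, among them enzymes of DNA repair, nucleotide synthesis and the mitochondrion.

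The stretches between the start sites of members that the results below turn on follow, as read from hg38 on the plus strand, 5′ to 3′. Each runs from the minus-strand gene on the left to the plus-strand gene on the right, and includes 10 bases of each gene where the start sites are close, or the central 300 bases where they are farther apart. Capitals mark matches to the fixed motifs ETS (CCGGAAGT), NRF1 (GCGCATGC), YY1 (ATGGCGGC), SP (GGGCGG), NF-Y (CCAAT), TATA box (TATAAA) and CREB (TGACGTCA) on either strand. The first 4 are pairs long known to be divergent.

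NPAT encodes a coactivator of histone genes and ATM the kinase that signals DNA breaks, with TSS 406 bp apart around chr11:108222692-108222991.
NPAT/ATM: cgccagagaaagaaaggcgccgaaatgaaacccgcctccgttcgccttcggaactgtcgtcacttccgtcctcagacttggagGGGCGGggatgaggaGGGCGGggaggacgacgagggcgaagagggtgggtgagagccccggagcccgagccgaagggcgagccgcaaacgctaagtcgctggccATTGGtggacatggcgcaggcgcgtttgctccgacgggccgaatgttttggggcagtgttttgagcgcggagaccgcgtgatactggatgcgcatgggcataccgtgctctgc
PPAT and PAICS encode enzymes of purine synthesis, with TSS 126 bp apart within chr4:56435605-56435751.
PPAT/PAICS: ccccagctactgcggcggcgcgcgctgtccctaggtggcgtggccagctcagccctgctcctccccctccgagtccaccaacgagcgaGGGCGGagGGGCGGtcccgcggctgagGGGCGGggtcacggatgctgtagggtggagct
TK1 encodes thymidine kinase and AFMID an enzyme of tryptophan breakdown, with TSS 125 bp apart within chr17:78187223-78187368.
TK1/AFMID: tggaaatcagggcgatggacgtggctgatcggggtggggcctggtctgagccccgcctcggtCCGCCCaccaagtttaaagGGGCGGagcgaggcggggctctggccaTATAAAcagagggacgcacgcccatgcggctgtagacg
PDCD10 encodes a protein of vascular integrity and SERPINI1 a neuronal protease inhibitor, with TSS 304 bp apart around chr3:167734942-167735241.
PDCD10/SERPINI1: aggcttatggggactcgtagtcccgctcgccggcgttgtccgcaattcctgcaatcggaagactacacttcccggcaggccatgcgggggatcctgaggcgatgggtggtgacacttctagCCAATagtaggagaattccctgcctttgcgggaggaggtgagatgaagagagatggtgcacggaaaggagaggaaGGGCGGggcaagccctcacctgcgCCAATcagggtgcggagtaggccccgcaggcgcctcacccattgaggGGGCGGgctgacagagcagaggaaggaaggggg
DCAF16, a ubiquitin ligase receptor, and NCAPG, a condensin subunit, had TSS 221 bp apart within chr4:17810748-17810989. The pair is shown because it had the highest H3K4me3 per kb among members with both an ETS and an NRF1 match, of which there were 6.
DCAF16/NCAPG: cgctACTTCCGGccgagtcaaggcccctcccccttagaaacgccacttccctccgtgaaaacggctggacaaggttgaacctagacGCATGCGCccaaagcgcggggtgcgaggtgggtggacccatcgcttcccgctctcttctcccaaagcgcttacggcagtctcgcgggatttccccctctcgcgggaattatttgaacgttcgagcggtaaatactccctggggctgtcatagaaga
H2BC4 and H2AC6 encode replication-dependent histones H2B and H2A, with TSS 219 bp apart within chr6:26123916-26124155.
H2BC4/H2AC6: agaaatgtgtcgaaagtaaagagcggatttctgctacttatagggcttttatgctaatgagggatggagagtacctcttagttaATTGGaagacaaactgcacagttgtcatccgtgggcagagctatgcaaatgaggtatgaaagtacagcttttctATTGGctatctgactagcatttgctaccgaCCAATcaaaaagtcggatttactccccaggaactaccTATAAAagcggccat
HES4 encodes a transcriptional repressor and ISG15 an interferon-induced ubiquitin-like modifier, with TSS 966 bp apart around chr1:1000506-1000805.
HES4/ISG15: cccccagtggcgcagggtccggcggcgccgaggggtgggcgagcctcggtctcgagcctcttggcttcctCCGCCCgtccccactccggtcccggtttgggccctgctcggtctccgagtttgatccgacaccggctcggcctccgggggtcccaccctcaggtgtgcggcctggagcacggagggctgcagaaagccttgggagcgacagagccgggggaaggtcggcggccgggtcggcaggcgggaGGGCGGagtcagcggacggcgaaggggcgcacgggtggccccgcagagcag
OSTM1 encodes a lysosomal membrane protein and NR2E1 an orphan nuclear receptor of neural stem cells, with TSS 168 bp apart within chr6:108165844-108166032.
OSTM1/NR2E1: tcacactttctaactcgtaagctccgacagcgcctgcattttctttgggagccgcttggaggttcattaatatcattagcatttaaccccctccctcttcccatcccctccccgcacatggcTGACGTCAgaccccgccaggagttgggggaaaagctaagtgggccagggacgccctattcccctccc
MED31 encodes a Mediator subunit, and the role of C17orf100 is not given here, with TSS 128 bp apart within chr17:6651624-6651772.
MED31/C17orf100: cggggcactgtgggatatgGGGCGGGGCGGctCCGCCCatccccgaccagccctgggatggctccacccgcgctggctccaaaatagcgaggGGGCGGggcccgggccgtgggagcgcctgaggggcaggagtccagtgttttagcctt

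The 583 pairs were compact. The distance between their TSS ran from 1 to 995 bp with a median of 128 bp, with quartiles at 70.5 and 230.5 bp. NOXO1/GFER, an oxidase organizer and a mitochondrial sulfhydryl oxidase, had its TSS 1 bp apart. At the limit of distance, PSMB1/TBP lay just inside at 995 bp and TXNDC12/BTF3L4 just outside at 1008 bp. At the limit of width, NOA1/POLR2B lay just inside at 7998 bp and RRP12/PGAM1 just outside at 8001 bp. Of the members, 564 (96.7%) were made of 4 merged intervals, against 92.2% of the 1-TSS loci.

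From each TSS of a divergent pair, H3K4me3 reached a median of 2.21 kb downstream into the gene. At 1-TSS loci the median reach was 2.37 kb downstream and 1.34 kb upstream, and the downstream arm was the longer in 84.3%. Single members were often uneven: the longer arm of a pair had a median of 2.63 kb and the shorter one 1.81 kb, and both were within 2-fold of each other in 78.4%. At 1-TSS loci the longer arm had 2.46 kb, the shorter 1.29 kb, and 57.7% had arms within 2-fold. The median width was 4.70 kb for divergent and 3.81 kb for 1-TSS loci. These are descriptions of loci, which are not replicates, and carry no test.

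**Figure D1:**
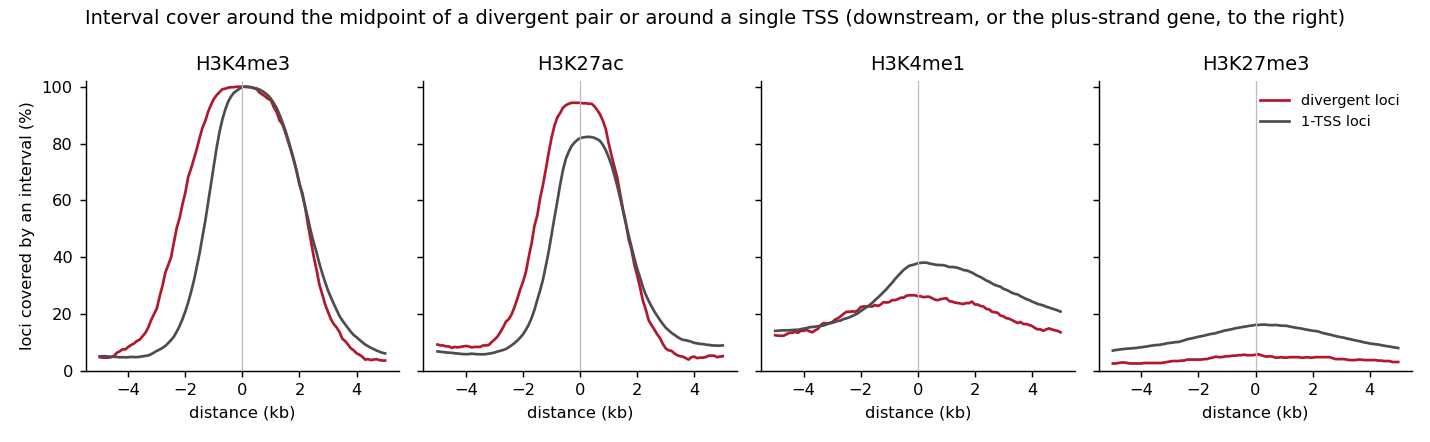
Share of loci covered by an interval of each modification (y axis, percent) by distance in kb from the midpoint of a divergent pair (red, 583 loci) or from a single TSS (gray, 7446 loci). Plus-strand genes lie to the right in a divergent pair, so an average over pairs is even by construction and says nothing of single pairs. H3K4me3 and H3K27ac lie on both sides of a single TSS and reach farther to the right, which is downstream. H3K27ac covers the center of 94.3% of divergent and 81.9% of 1-TSS loci.

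Divergent loci carried more H3K4me3 than 1-TSS loci in every library. Levels are given as CPM, the count in the widest interval of a locus relative to the TMM-scaled total of its library. The median over the 583 members was 26.36 and 27.03 CPM in the 2 DMSO libraries and 25.60 and 27.01 CPM under PR-957. Over the 1-TSS loci it was 15.5 and 15.8 CPM in DMSO and 15.5 and 15.6 CPM under PR-957. In DMSO the ratio of these medians came to 1.71 ± 0.012 (SD, n = 2), and under PR-957 to 1.69 ± 0.054 (SD, n = 2), so all 4 libraries lay well above 1 and the treatments differed by less than the spread between PR-957 libraries.

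Part of this ratio went with width. Per kb of interval the median was 5.99 ± 0.14 CPM (SD, n = 2) against 4.14 ± 0.052 in DMSO, a ratio of 1.45 ± 0.016. Among loci of like width the ratio shrank as loci grew wider: it was 1.63 for loci of 2 to 3 kb (52 members), 1.55 at 3 to 4 kb (116), 1.30 at 4 to 5 kb (170), 1.21 at 5 to 6 kb (131), 1.15 at 6 to 7 kb (72) and 1.14 at 7 to 8 kb (32). Weighted by the members of each bin it was 1.33. Divergent loci were thus above 1-TSS loci of the same width in each of these 6 bins, and in both DMSO libraries. Among the 10 members of 1 to 2 kb the ratio was 0.901 in DMSO 1 and 1.24 in DMSO 2, so no direction was seen.

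**Figure D2:**
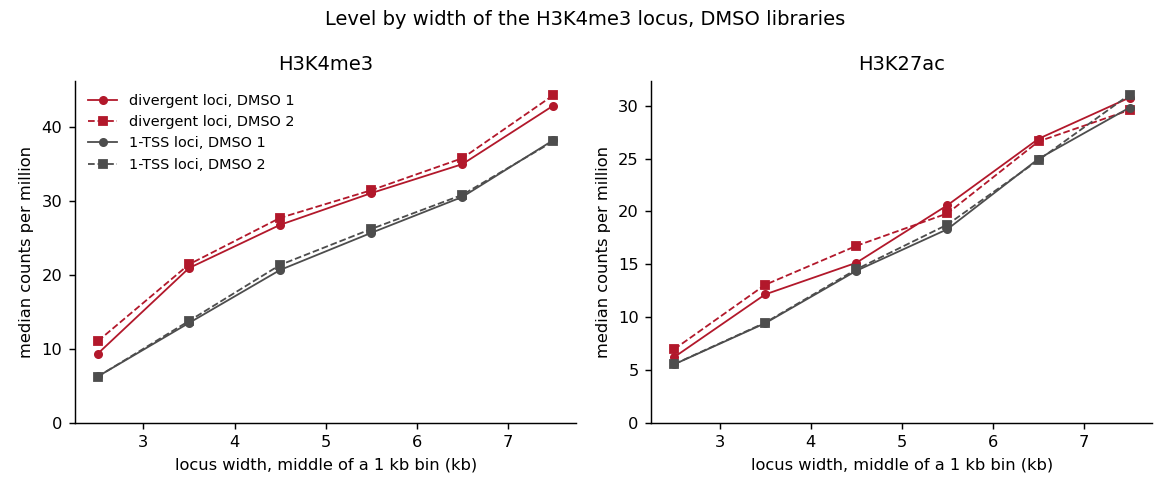
Median CPM (y axis) of divergent (red) and 1-TSS loci (gray) in 1 kb bins of locus width (x axis, kb), for H3K4me3 (left) and H3K27ac (right), in DMSO 1 (circles) and DMSO 2 (squares). The red lines lie above the gray ones throughout for H3K4me3, by 1.63-fold at 2 to 3 kb and 1.14-fold at 7 to 8 kb, and meet them at 7 to 8 kb for H3K27ac (0.992-fold).

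Members were divided by the distance between their TSS. Pairs at most 100 bp apart (224 members) had a median H3K4me3 level of 5.81 CPM per kb in DMSO, pairs over 100 and up to 200 bp apart (187) 5.91, pairs over 200 and up to 300 bp apart (78) 6.30 and wider ones (94) 5.95. An H3K4me1 interval met 30.4%, 43.3%, 65.4% and 50.0% of these classes, in the same order, so the closest pairs held it least often. An H3K27me3 interval met 5.80%, 7.49%, 2.56% and 14.9%, which are 13, 14, 2 and 14 members.

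The other modifications followed the profile of active promoters. An H3K27ac interval overlapped 555 members (95.2%) against 83.9% of 1-TSS loci, with a median of 16.9 ± 0.29 CPM (SD, n = 2) against 12.1 ± 0.073 in DMSO. That ratio was 1.41 ± 0.016 and per kb of interval 1.25 ± 0.040. An H3K4me1 interval overlapped 247 members (42.4%) against 49.6%, and the median ratio of level was 0.657 ± 0.023, or 0.787 ± 0.026 per kb. H3K4me1 covered the midpoint of 26.2% of members against 37.9% of single TSS, and lay on 1 side only, off the midpoint, in 22.6% against 16.1%. In the window of this count 287 members had no H3K4me1, fewer than the 336 without an interval over the locus. The window thus reached beyond the locus, and part of the 22.6% may lie outside it. An H3K27me3 interval overlapped 43 members (7.38%) against 18.1% of 1-TSS loci, and among the loci that had one the ratio of level, 1.05 ± 0.096, could not be told from 1.

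Combined, 528 members had H3K27ac without H3K27me3, 27 had both, 16 had H3K27me3 without H3K27ac and 12 had neither. Their median H3K4me3 level in DMSO was 6.19 CPM per kb in the first class, 4.27 in the second, 1.14 in the third and 2.37 in the last. Among the 16 were HES2/ESPN and PTH2/GFY, with H3K27me3 means of 1013 and 811 CPM in intervals of 68600 and 29428 bp, as well as FOXL2/FOXL2NB and OSTM1/NR2E1. FOXL2 is known from the ovary, NR2E1 from neural stem cells and ESPN from hair cells. The 12 with neither mark included CLDN1/CLDN16, both claudins of epithelia, GABRA4/GABRB1, both subunits of a neuronal receptor, and SYCP2/FAM217B, of which SYCP2 acts in meiosis.

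The range of H3K4me3 among members was wide. In the 4 libraries, in the order DMSO 1, DMSO 2, PR-957 1 and PR-957 2, PDCD10/SERPINI1 had 55.1, 57.6, 52.3 and 51.1 CPM, or a DMSO mean of 17.4 CPM per kb. SESN1/CEP57L1, a stress-induced sestrin beside a centrosomal protein gene, had 57.7, 60.4, 59.5 and 58.0 CPM, or 15.3 per kb. At the low end CLDN1/CLDN16 had 1.34, 0.649, 1.77 and 0.892 CPM, or 0.392 per kb, in a locus that only 1 interval made up. The libraries of a treatment differed widely here for their level, so such low members carry little information on the treatment.

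The 5 members with the most H3K4me3 per kb were MTERF3/PTDSS1, PDCD10/SERPINI1, CNOT7/VPS37A, SESN1/CEP57L1 and NUDCD1/ENY2, and MTERF3/PTDSS1, CNOT7/VPS37A and NUDCD1/ENY2 lie on chromosome 8. MTERF3, a mitochondrial transcription regulator, shares its promoter with PTDSS1, a phosphatidylserine synthase, and had 127, 127, 117 and 130 CPM, or 26.6 per kb. The 16 members on chromosome 8 had a median of 11.7 and 12.4 CPM per kb in the DMSO libraries, against 5.85 and 5.97 for the 567 members elsewhere. The 1-TSS loci on chromosome 8 were higher as well, at 7.35 and 7.59 against 4.07 and 4.13. Without chromosome 8 the ratio of divergent to 1-TSS loci was 1.71 for H3K4me3, so it did not rest on that chromosome. Whether the number of copies of the chromosome had a part in its level was not tested.

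Sequence around the start sites differed between both classes, although GC content alone was lower in divergent loci. In 300 bases around the midpoint of the pair the median GC content was 65.3%, against 68.0% around a single TSS with H3K4me3 and 62.7% around all 20046 protein-coding TSS. The observed over expected number of CpG was 0.887, 0.860 and 0.735 in the same order, and it exceeded 0.6 in 93.8%, 85.0% and 61.3%. The windows are centered on a midpoint in one class and on a TSS in the others, which bears on each of the shares below.

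An exact ETS match, the site of factors such as GABPA, lay in 14.2% of divergent windows, 6.86% of 1-TSS windows and 5.14% of windows around all TSS. An NRF1 match, the site of a regulator of mitochondrial genes, lay in 8.92%, 4.66% and 3.63%. NF-Y sites (CCAAT) lay in 42.2%, 32.6% and 33.8%, while YY1 sites lay in 6.69%, 6.45% and 4.25% (an order of the first pair that turned in windows of 150 bases) and SP sites in 74.96%, 71.7% and 54.3%. A TATA box, here the bare letters TATAAA at any place of the window, lay in 3.43%, 4.41% and 9.18%, and a CREB site in 3.43%, 2.98% and 2.18%. The SP motif can overlap itself, as in MED31/C17orf100 above, and a window was counted once per motif.

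The 83 members with an ETS match had a median of 6.09 CPM of H3K4me3 per kb, against 5.99 in the other 500, and the 52 with an NRF1 match 6.60 against 5.93. Not divided by width, the medians were 26.5 CPM with an ETS match and 26.7 without, the other way round, and 28.3 and 26.6 for NRF1. DCAF16/NCAPG, shown above with both, had 33.9, 38.5, 36.6 and 37.6 CPM in the order of libraries used before, or 6.995 per kb in DMSO. TATA boxes were found in 20 members. These included 3 of the 4 histone pairs, namely H2BC4/H2AC6, H2BC8/H2AC8 and H3C7/H2BC9, as well as TK1/AFMID and PSMB1/TBP, and their median level was 4.84 CPM per kb against 6.04 in the other 563 members, while not divided by width it was 27.5 against 26.7 CPM. A match describes letters in the window and not binding of a factor.

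The genes of divergent loci were counted by function. Overall 5.82% of protein-coding genes, 1166 of 20046, lay in a member. Of 55 genes of DNA replication 13 (23.6%) did so, among them PCNA, the polymerase clamp, MCM2 and MCM4, subunits of the replicative helicase, and ORC1, ORC3 and ORC6 of the origin recognition complex. Of 82 genes of DNA repair 21 (25.6%) did so, among them ATM, BRCA1, PALB2, PMS2, FANCM, MRE11 and XPC. The shares were 14.8% for 229 mitochondrial genes (ribosome, respiratory chain and its assembly, coenzyme Q synthesis and protein import), 18.2% for 33 RNA polymerase subunits, 12.4% for 89 chaperones, 12% for 50 genes named PSMA to PSMG (proteasome subunits and associated proteins, among them PSME3IP1, which is not a subunit) and 11.4% for 70 replication-dependent histone genes. They were 5.88% for 34 aminoacyl-tRNA synthetases, 4.78% for 544 zinc finger genes and 2.47% for 81 cytosolic ribosomal proteins. The base of 5.82% includes genes without an H3K4me3 interval at their TSS, which could not be members. In 1-TSS loci lay 7446 of all genes, 25 of the replication genes and 37 of the repair genes. The shares above are therefore not shares of the genes with H3K4me3, among which the contrast was not tested. No gene of the 21 KMT2A targets named by the study or of 15 genes of the immunoproteasome and MHC class I lay in a member, and 1 of 20 NFE2L2 targets did, BLVRB in the pair BLVRB/SPTBN4. Lists this short say little at a share of 5.82%. Of the KMT2A targets only 5 lay in 1-TSS loci, and of the immunoproteasome and MHC class I genes 1. The 8 kb limit also excluded wide loci: the intervals over HOXA9, MEIS1 and FLT3 were 50909, 15557 and 10957 bp wide.

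Pairs of both functions were described by their H3K4me3. The 13 replication pairs had a median of 7.39 CPM per kb with a range of 4.07 to 14.1, and the 21 repair pairs 6.24 with a range of 2.89 to 14.1, against 5.99 over all members. The upper end of both ranges is the same pair, PRKDC/MCM4 on chromosome 8, which is counted in both lists. Not divided by width the medians were 34.49 and 26.98 CPM, against 26.69. VPS35/ORC6 had 65.2, 67.9, 64.5 and 69.9 CPM and PCNA/CDS2 had 32.9, 37.0, 36.5 and 38.5, in the order of libraries used before. In both the groups of libraries overlapped.

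Of 16 pairs named in textbooks as head to head, 5 met the rule: NPAT/ATM, PPAT/PAICS, TK1/AFMID, PDCD10/SERPINI1 and PRKDC/MCM4. Gene records that start inside each other put 5 pairs among the overlapping heads instead, among them GART/SON, BRCA2/ZAR1L, KARS1/TERF2IP and HADHA/HADHB. No H3K4me3 interval lay over either TSS of PSMB9/TAP1, SURF1/SURF2 and MRPS12/SARS2 as the records place them, and HSPD1/HSPE1, CHEK1/STT3A and FANCA/SPIRE2 fell into other or mixed classes. The class of a pair, and so the count of divergent promoters, depends on the 5′ end that a gene record gives. Why 3 of these pairs had no H3K4me3 interval was not tested.

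NPAT/ATM had 36.4, 39.1, 33.9 and 35.9 CPM of H3K4me3 and PPAT/PAICS had 63.9, 64.6, 60.3 and 61.9. TK1/AFMID had 23.8 ± 1.15 CPM (SD, n = 2) in DMSO and 22.6 ± 2.21 (SD, n = 2) under PR-957. The treatments overlapped in TK1/AFMID and lay apart, by less than 1.5-fold, in the former pairs. Over all members the groups lay apart in 217 of 583 (37.2%), so this does not set these pairs apart.

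The question put to the 4 modifications by the design was whether inhibition of PSMB8 changed them. At divergent loci almost nothing passed the test in H3K4me3 and H3K27ac, and the few calls were in H3K4me1 and above all in H3K27me3. The shares called over all intervals rose in the same order, from 0.226% and 0.238% to 1.94% and 5.92%. This order is therefore not particular to divergent loci. A call is an adjusted p under 0.05 by the quasi-likelihood test of edgeR, adjusted by Benjamini-Hochberg over all intervals of the modification.

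**Figure D3:**
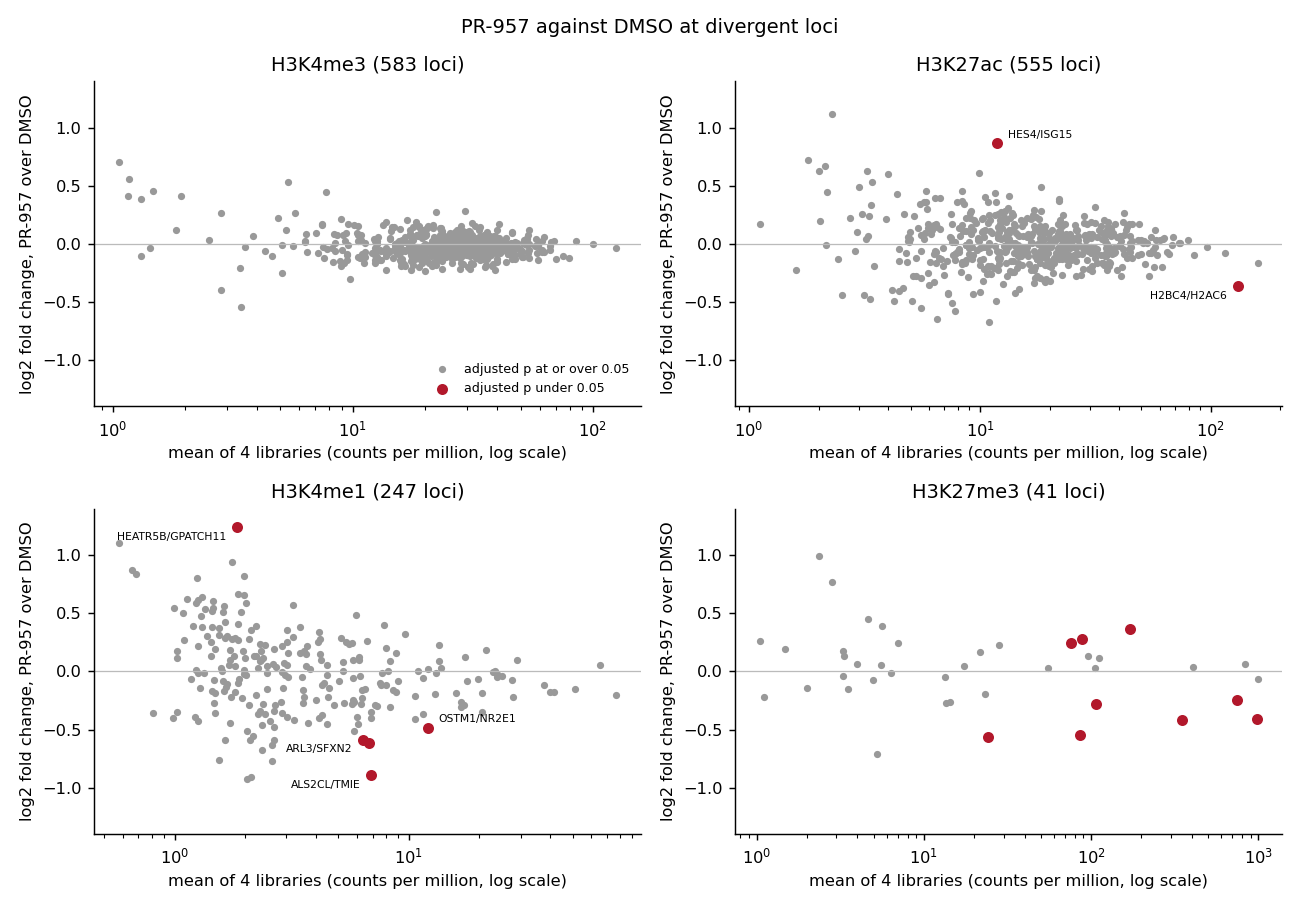
Log2 fold change of PR-957 over DMSO (y axis) against the mean CPM of the 4 libraries (x axis, log scale) for the divergent loci tested in each modification. Red points passed an adjusted p under 0.05 (none of 583 in H3K4me3, 2 of 555 in H3K27ac, 5 of 247 in H3K4me1 and 9 of 41 in H3K27me3), and those of H3K27me3 and 1 of H3K4me1 are left without names.

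In H3K4me3 none of the 583 members was called by edgeR, against 0.226% of all 59229 intervals tested and 0.282% of the 1-TSS loci. None was called by DESeq2. An unadjusted edgeR p under 0.05 was found in 40 members (6.86%). That share was no higher than the 7.52% of all intervals and the 7.94% of the 1-TSS loci. The median log2 fold change of the members was -0.03, beside 0.00 over all intervals, and 582 of 583 were within 1.5-fold. The median absolute log2 difference between the DMSO libraries was 0.07, as large as the 0.06 between the treatment means. ZFYVE28/CFAP99, a phosphoinositide-binding protein gene beside a ciliary one, came closest. It had 26.7 and 26.4 CPM in DMSO and 31.8 and 32.7 under PR-957, a log2 fold change of 0.28 ± 0.08 (SE), with an edgeR adjusted p of 0.0887, which fell to 0.0285 when libraries were scaled by their size only.

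In H3K27ac 2 of 555 members were called, 0.360%, beside 0.238% of 74510 intervals and 0.128% of the 1-TSS loci, so the members' share was near the background. H2BC4/H2AC6 fell and HES4/ISG15 rose. The interval over H2BC4/H2AC6, 7.06 kb wide, had 144 and 152 CPM in DMSO and 116 and 113 CPM under PR-957. Both PR-957 libraries were below both DMSO libraries, with a log2 fold change of -0.37 ± 0.05 (SE) and an edgeR adjusted p of 4.51e-08. H3K4me3 at the same locus was 47.0, 44.7, 45.0 and 46.6 CPM, so the groups overlapped there. Without the second PR-957 library the adjusted p was 0.058.

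HES4/ISG15 had 9.91 and 6.76 CPM of H3K27ac in DMSO and 13.9 and 16.7 under PR-957, all lower in DMSO. The log2 fold change was 0.87 ± 0.18 (SE) with an edgeR adjusted p of 0.00262. The call was lost without the second DMSO library (adjusted p = 0.394) and without the second PR-957 library (adjusted p = 0.524). The locus also lay under H3K27me3 of 401, 396, 428 and 393 CPM, whose groups overlapped, and its H3K4me3 was 8.37, 8.24, 8.07 and 8.09 CPM.

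The other 3 histone pairs were also lower in H3K27ac under PR-957 but did not pass. H2AC15/H2BC15 had 171.2 and 165.0 against 151.8 and 148.8 CPM (adjusted p = 0.165 by edgeR), H2BC8/H2AC8 60.9 and 59.9 against 57.7 and 48.2 (0.438 by the same test), and H3C7/H2BC9 47.0 and 42.0 against 37.4 and 36.5 (0.308). The groups did not overlap in any of the 4 histone pairs, all on chromosome 6, as in 198 of the 555 members tested (35.7%) and in 37.3% of 1-TSS loci. Their median log2 fold change was -0.24 in H3K27ac and -0.02 in H3K4me3. Among the replication pairs none of 13 was called in either modification, with median log2 fold changes of 0.03 in H3K4me3 and 0.05 in H3K27ac, and among the repair pairs none of 21, with -0.02 and -0.04. Mitochondrial pairs (33 in H3K4me3 and 32 in H3K27ac) had medians of -0.04 and -0.03 and the 6 pairs with a gene named PSMA to PSMG, PSME3IP1 included, -0.01 and 0.08, again with none called. TK1/AFMID had 8.17 and 10.5 CPM of H3K27ac in DMSO and 6.74 and 5.77 under PR-957, apart but with an edgeR adjusted p of 0.39.

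In H3K4me1 5 of 247 members were called, 2.02%, beside 1.94% of 108158 intervals and 1.76% of the 1-TSS loci. The members' share was thus near the background here as well. ALS2CL/TMIE, of which TMIE serves the hair cells of the inner ear, fell from 8.43 and 9.62 CPM to 4.36 and 5.22. The log2 fold change was -0.89 ± 0.17 (SE) with an edgeR adjusted p of 0.000306. It passed under each of the 10 alternative settings that gave it an adjusted p. DESeq2 was not among these and called no member in H3K4me1. OSTM1/NR2E1 fell from 13.4 and 14.8 CPM to 9.11 and 10.9 (-0.48 ± 0.13, adjusted p = 0.0297 by edgeR). ARL3/SFXN2, a ciliary GTPase and a mitochondrial carrier, fell from 7.18 and 8.32 to 4.17 and 5.91 CPM, with an edgeR adjusted p of 0.0465. In these 3 loci both PR-957 libraries were below both DMSO libraries. The call of OSTM1/NR2E1 was lost in 5 of 11 alternatives and that of ARL3/SFXN2 in 5 of 10. Both were lost without either DMSO library (adjusted p = 0.104 and 0.22 for the former, 0.135 and 0.31 for the latter), without the first PR-957 library (0.314 and 0.436) and under library size only (0.0526 and 0.0813). OSTM1/NR2E1 was also lost by DESeq2 (0.361) and ARL3/SFXN2 at a mean count of at least 50 (0.0612).

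The only call upward in H3K4me1 was assigned to HEATR5B/GPATCH11, at 1.22 and 0.962 CPM in DMSO and 2.89 and 2.35 under PR-957 (adjusted p = 0.0487 by edgeR). Its interval of 2.45 kb shared 4.33% of its length with the H3K4me3 locus and held neither TSS. It is a neighbor of the promoter and says nothing of the promoter itself. Leaving out any 1 library ended the call, with adjusted p of 0.178, 0.228, 0.274 and 0.071, and so did 1 interval per locus (0.0681).

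**Figure D4:**
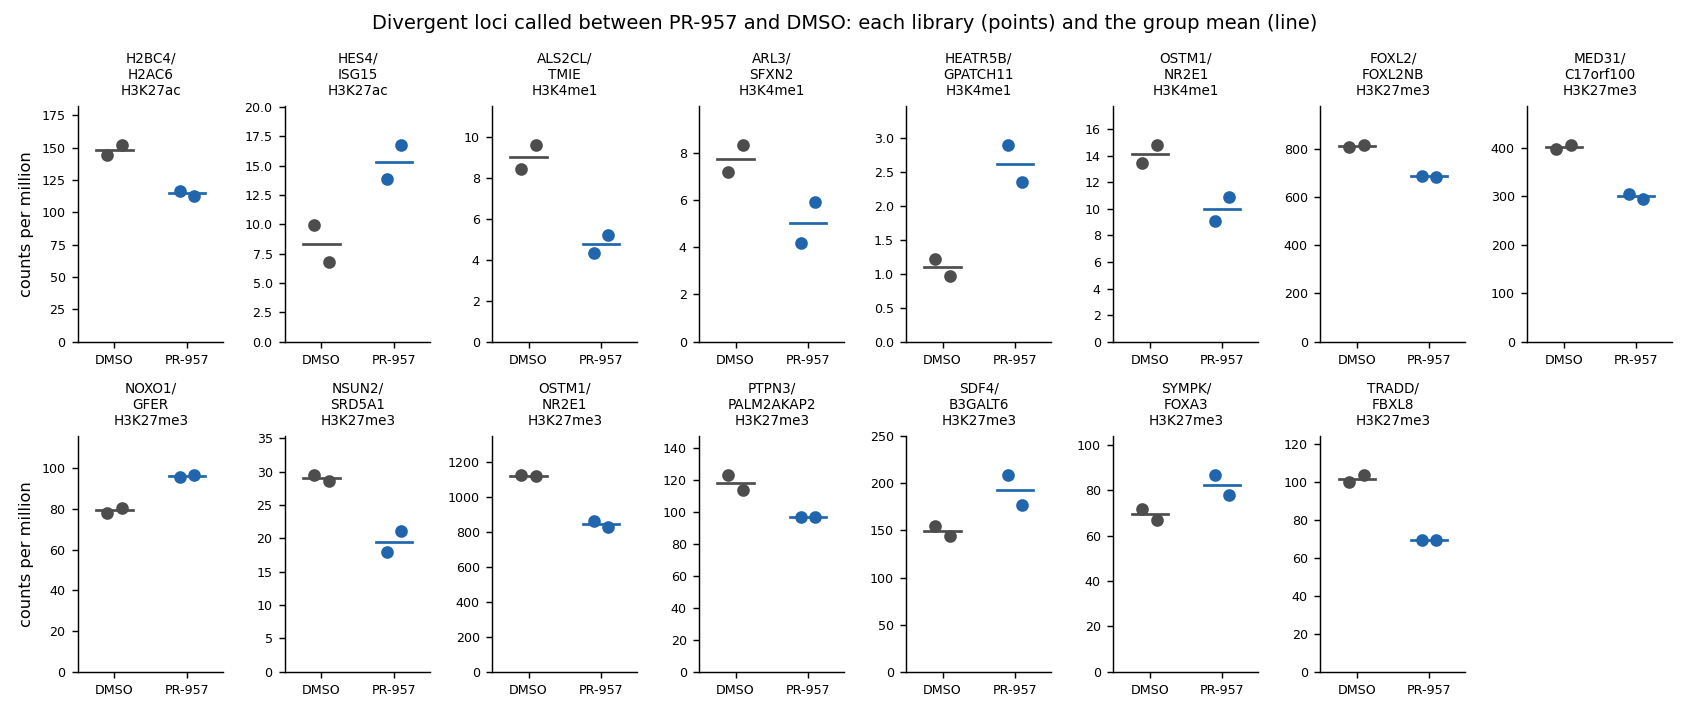
CPM (y axis, from 0, with its own scale in each panel) of the calls named in the text at divergent loci in the DMSO (gray) and PR-957 (blue) libraries; points are libraries and lines group means (n = 2). The groups do not overlap in any panel, with the widest gap for its level in ALS2CL/TMIE and HEATR5B/GPATCH11 in H3K4me1.

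H3K27me3 was the modification in which members were called most often. Of the 43 members with an interval 41 passed the count filter, and 9 of these were called, 21.95%, beside 5.92% of 31806 intervals and 12.1% of the 1-TSS loci; with 41 loci tested, 9 is a small count. The median standard error of a log2 fold change was 0.16 for the 41 members and 0.17 for the 1-TSS loci, but 0.29 over all intervals. The share over all intervals thus rests on less precise values. Of the 9, 6 were lower and 3 higher. Under library size only the split was 4 lower and 9 higher of 13 called, as this scaling moved the median of all intervals from 0.02 to 0.18, so directions below are relative to TMM scaling. The intervals were much wider than the promoters, from 8.22 to 43.3 kb, so these values describe domains around or beside the loci.

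OSTM1/NR2E1 lay inside the widest one, 43.3 kb, and had the most H3K27me3 of the called members. It had 1121 and 1120.2 CPM in DMSO and 864 and 828 CPM under PR-957, a log2 fold change of -0.41 ± 0.04 (SE) with an edgeR adjusted p of 1.06e-13. Its H3K4me3 was 6.44 and 6.68 CPM in DMSO and 8.34 and 9.48 CPM under PR-957, apart in the other direction, but that log2 fold change of 0.44 ± 0.14 (SE) had an edgeR adjusted p of 0.172. It was the only member called in 2 modifications, H3K27me3 and H3K4me1, and no H3K27ac interval met it.

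MED31/C17orf100 lay at the left end of a domain of 40.9 kb, which held both TSS and shared 3.58% of its length with the locus. This pair fell from 396 and 405 CPM to 305 and 295 (-0.42 ± 0.05, adjusted p = 8.86e-12 by edgeR). Its H3K4me3, 17.5, 18.5, 16.1 and 18.2 CPM, and its H3K27ac, 12.7, 13.4, 10.9 and 14.5 CPM, overlapped between the groups. FOXL2/FOXL2NB, inside 36.7 kb, fell from 808 and 814 CPM to 688 and 682 (-0.24 ± 0.05, adjusted p = 1.31e-05 by edgeR), a call lost under library size only (0.130). PTPN3/PALM2AKAP2, a phosphatase gene beside that of an anchoring protein, fell from 122.8 and 113.5 CPM to 97.1 and 97.0 (adjusted p = 0.00154 by edgeR), and this was lost under library size only (0.297) and without the first DMSO library (0.186).

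NOXO1/GFER rose from 78.3 and 80.4 CPM to 95.9 and 96.5 (0.28 ± 0.07, adjusted p = 0.00494 by edgeR), and SYMPK/FOXA3, a polyadenylation factor beside a liver transcription factor, from 71.6 and 67.1 to 86.6 and 78.1 (adjusted p = 0.0323 by edgeR). Leaving out either DMSO library ended both calls, with adjusted p of 0.186 and 0.112 for the first and 0.127 and 0.465 for the second. Leaving out the second PR-957 library ended the former (0.054) and leaving out the first the latter (0.487). With 1 interval per locus both were lost (0.159 and 0.349), and SYMPK/FOXA3 was also lost under the replicate block (0.0894) and by DESeq2 (0.0895).

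For SDF4/B3GALT6, TRADD/FBXL8 and NSUN2/SRD5A1 the called interval held neither TSS of the pair. The domain beside TRADD/FBXL8, 17.3 kb wide, shared 0.468% of its length with the locus, that beside SDF4/B3GALT6 3.44% and that beside NSUN2/SRD5A1 21.9%. Beside TRADD/FBXL8 the level was 99.6 and 103 CPM in DMSO and 69.4 and 69.2 under PR-957, and beside SDF4/B3GALT6 it was 155 and 144 against 208 and 177. The call beside NSUN2/SRD5A1 was lost without the first PR-957 library (0.0588). Counting only intervals that hold both TSS, 6 of 32 members were called, 4 lower and 2 higher. This restriction was not applied to the comparison loci or to all intervals. The background shares given above follow the unrestricted rule, so whether this count exceeds the background was not tested.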

How the data were processed

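For each modification the authors deposited a count per interval, of reads or fragments, on 1 list of hg38 intervals shared by its 4 libraries, as raw whole numbers; the counting program and any duplicate removal are not given in the sources used here. Listed in the submitters' processing notes are Trimmomatic 0.39, Bowtie2 2.2.5, Picard 2.27.1, SAMtools 1.7, SEACR 1.3 and deepTools 3.5.1, and the methods name MACS2 or SEACR as peak callers. Interval coordinates keep the form of the files. The 2 IgG samples are not analysed here.

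Intervals were filtered by filterByExpr (minimum count 10), scaled by TMM and tested with the quasi-likelihood test of edgeR 4.0.16 in R 4.3.3 for each modification on its own, with no term for the replicate number, at an adjusted p of 0.05 over all intervals tested. The script was tested on simulated data. A locus was represented by its widest interval; for the other modifications this was the widest interval that overlaps the H3K4me3 locus. Exact permutation of 2 libraries against 2 cannot give a p under 0.333, so none was used. Intervals were merged and annotated with GENCODE release 44, and sequence read from hg38, in Python 3.11.15.

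Loci named are the textbook pairs, the 5 with the most and the least H3K4me3 per kb, those called (at most 10 per modification, or the 3 with the smallest p where fewer than 3 were called) and a few named as examples of a list after their values were seen; some loci so chosen are not reported here. The members, lists and motifs were chosen with earlier results of these data known. DESeq2 1.42.0, other scalings, filters, widths and distances, the replicate block and leaving out each library were alternatives. Chosen after seeing the data were the requirement that an interval hold both TSS, the count without chromosome 8 and the division of 1-TSS loci by a lncRNA.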

Additional observations from a re-analysis of the deposited data

How the results depend on the processing

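The number of members called in H3K4me3 was 0 or 1 in every alternative, with 1 under library size only and 0 to 1 when a library was left out. In H3K27ac it was 2 in the main test, 1 by DESeq2 and 0 to 2 without a library. In H3K4me1 it was 5 in the main test, 2 under library size only, 3 with a mean count of at least 50, 0 by DESeq2 (13 at an unadjusted p under 0.05) and 1 to 3 without a library. In H3K27me3 it was 9 in the main test, 6 to 8 without a library, and from 6 to 13 in all. DESeq2 gave an adjusted p to 47 members in H3K27ac, 43 in H3K4me1 and 20 in H3K27me3. The replicate block gave 0, 2, 5 and 8 calls in the 4 modifications, in the order H3K4me3, H3K27ac, H3K4me1 and H3K27me3. Same-numbered libraries deviated together only in H3K4me3 (correlation 0.15, from -0.01 to 0.00 elsewhere), and with 2 pairs the numbers are not known to pair the libraries. Where a library is left out, the lone library of its group is assumed to vary like the other group. Over the single loci that the naming rule picked, 176 of 213 repeats kept their side of the threshold, 36 lost the call, 1 gained it and none changed direction.

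The number of divergent loci was 178 for loci under 4 kb. Over 1-TSS loci the H3K4me3 level was 1.69-fold with TSS at most 300 bp apart, 1.74 with the narrowest interval, 1.45 per kb, 1.62 with 4 or more intervals, 1.33 within bins of width and 1.70 to 1.71 without a DMSO library. The H3K27ac level was 1.43-fold with the narrowest interval, 1.27 for loci under 4 kb, 1.25 per kb, 1.14 within bins of width, 1.38 without chromosome 8 and 1.39 to 1.42 without a DMSO library. The ratio of widths, 1.23, was 1.22 with TSS at most 300 bp apart, 1.06 under 4 kb and 1.21 with 4 or more intervals. In windows of 150 bases the shares of members with a motif were 10.3% for ETS, 6.35% for NRF1, 2.74% for YY1, 60.0% for SP, 31.4% for NF-Y and 1.54% for the TATA box. For YY1 the order turned, with 2.74% of members against 4.43% of 1-TSS loci, where 300 bases gave 6.69% against 6.45%. The depth of H3K4me1 and the 2 libraries per group limit what low members can show: the median standard error of a log2 fold change was 0.27 in H3K4me1 and 0.08 in H3K4me3.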

Other observations

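Many 1-TSS loci also hold the start of a long noncoding RNA (lncRNA) that leaves in the other direction, and these stood between both classes in the width and levels below, but not in CpG content. Of the 7446 loci with 1 protein-coding TSS, 953 held a lncRNA TSS of GENCODE within 1 kb upstream on the opposite strand. Their median width was 4.20 kb, against 3.76 kb for the 6493 without one and 4.70 kb for the 583 protein-coding pairs. H3K4me3 per kb in the DMSO libraries was 4.90 and 5.07 CPM at these loci, 3.98 and 4.03 CPM without such an RNA, and 5.89 and 6.09 CPM at the pairs. An H3K27ac interval met 88.1%, 83.2% and 95.2%, and an ETS match lay in 10.6%, 6.31% and 14.2%, in the same order. The median observed over expected number of CpG was 0.905, 0.850 and 0.887, highest at the loci with such an RNA. The division was made after seeing the data, and these are values over loci, with no test.

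The 461 loci whose 2 genes overlap at their heads, which the rule left out, had a median width of 4.66 kb and a median H3K4me3 level of 5.49 and 5.60 CPM per kb in the DMSO libraries, against 5.89 and 6.09 at divergent loci and 4.10 and 4.18 at 1-TSS loci. They hold BRCA2/ZAR1L, of which BRCA2 acts in DNA repair by recombination. In the same libraries loci with 3 or more TSS had 5.87 and 6.12 CPM per kb and pairs that lay farther apart 5.32 and 5.29. Pairs on the same strand had 4.38 and 4.43. A level above that of 1-TSS loci was thus not particular to divergent pairs.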
